A study of Mus musculus with 75 samples.

Results

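Mouse E14 embryonic stem cells (ESCs), a line derived from the blastocyst, were profiled by RNA-seq with a deletion of an enhancer named Cyp26-E1 (Cyp26-E1-KO, n = 3), with a deletion of another enhancer named Cyp26-E2 (Cyp26-E2-KO, n = 3), and without either (WT, n = 3). The results concern Cyp26-E1-KO against WT, and the Cyp26-E2-KO libraries were fitted in the same model. All 9 cultures had LIF and 2 inhibitors of MEK and GSK (2i) withdrawn and received 2 µM retinoic acid (RA) for 24 h, so the effect of RA itself is not part of the comparison. The comparison uses 6 of the 75 samples of the series, chosen by their titles, and covers every gene of the count table. The mutant columns of that table carry codes and were matched to the titles by code, so the names of the 2 deletions rest on that match. The labels give neither the coordinates of the deletion nor whether each line is 1 clone. They call the replicates biological without saying that they came from separate cultures, so p-values measure only the spread between these libraries.

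RA is the active form of vitamin A and binds nuclear receptors, the RARs, which pair with RXRs on DNA motifs called RA response elements. Cells limit RA by oxidising it with the cytochrome P450 enzymes CYP26A1, CYP26B1 and CYP26C1, and Cyp26a1 is itself a classical RA target gene. In ESCs RA drives exit from pluripotency and switches on Hox genes, which specify position along the body axis.

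A position for the element was sought in 4C-seq of WT cells, a method that counts the DNA fragments ligated to a chosen bait, since 1 of the baits carries the name Cyp26-E1. In the 2 WT libraries with 848091 and 1623491 reads, 77.1% and 77.3% of reads lay on chromosome 19. The 10-kb window with most reads was chr19:37690001-37700000 (mm10), with 12.4% and 12.7% of all reads, and 1505 fragments were shared by the 2 libraries. That window holds the end of Cyp26c1 (37685581 to 37693398), the space between both genes, and the start of Cyp26a1 (37697798 to 37701536). Within that window the fragment with most reads was the same in both libraries, 37695742 to 37696754, and lies between the genes. A 4C bait marks where the primer sits and not where the deletion ends.

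The 30 kb around the window (37680001 to 37710000) were searched on both strands for a direct repeat of 2 hexamers 5 bases apart (DR5), the form of RA response element that RAR-RXR pairs are best known for. Each hexamer could be the consensus AGGTCA or a variant of it. The variants allowed were AGTTCA, in which the third letter differs, then GGGTCA, in which the opening letter differs, and finally GGTTCA, which has both changes. No match overlapped another. The search found 2 matches, both between Cyp26c1 and Cyp26a1. The first lies at -1889 bases from the Cyp26a1 start, on the plus strand inside the window's fragment with most reads. The second lies at -22 bases from the start, on the minus strand. Both are shown with flanks of up to 60 bases from the RefSeq genome GRCm38.p6, the mm10 build, with the hexamers in capitals. The windows are chr19:37695849-37695985 and chr19:37697716-37697797, and the second stops at the annotated Cyp26a1 start and is read on the minus strand.
DR5 1: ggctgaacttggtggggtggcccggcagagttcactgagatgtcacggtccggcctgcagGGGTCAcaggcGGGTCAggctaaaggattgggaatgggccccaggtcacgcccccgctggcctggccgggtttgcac
DR5 2: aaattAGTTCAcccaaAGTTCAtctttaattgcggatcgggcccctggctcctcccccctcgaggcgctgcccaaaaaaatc
The first repeats GGGTCA exactly and the second repeats AGTTCA exactly. Of 5818 windows of 10 kb on chromosome 19, 235 (4.04%) held at least 1 such match. In the 250 bases before a start, 28 of 27025 genes with a promoter in the RefSeq table (0.104%) held one, counting any promoter of a gene. A match describes the letters only, and whether the deletion removed either or both of the repeats cannot be told from the labels.

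One library stood apart. For Cyp26-E1-KO replicate 2, the variance between it and replicates 1 and 3 was 51.7 and 45.9 times that expected from counting, against 6.10 between replicates 1 and 3, 5.58 to 9.68 within Cyp26-E2-KO and 5.63 to 6.40 within WT. Its mitochondrial share was 2.83% of counts, against 1.92% and 1.87% in the other Cyp26-E1-KO libraries and 2.03% to 2.14% in WT. The summed level of 6 pluripotency markers, in CPM (read counts scaled to the TMM-adjusted library size), was 1944 in it, against 2880 and 2729 CPM in the others and 2902 to 3029 CPM in WT. Most of that gap was 1 abundant gene, Dppa5a, singled out after its values were seen, at 745 CPM in replicate 2 against 1466 and 1331 CPM in the others and 1386 to 1448 CPM in WT. Without it the sum was 1199 CPM in replicate 2, 1414 and 1398 CPM in the others and 1516 to 1597 CPM in WT, and Esrrb was highest in replicate 2 (337 CPM). Libraries held 28397794 to 31168480 counts in Cyp26-E1-KO, 29715238 to 33601996 in Cyp26-E2-KO and 30030100 to 30469766 in WT. None of the pluripotency markers was at 0, while 7 fibroblast markers summed to 3.28 to 5.00 CPM in Cyp26-E1-KO and 4.96 to 5.82 CPM in WT. Fewer cells of a type and less RNA per cell cannot be told apart in these bulk samples.

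Cyp26a1, Cyp26c1 and Cyp26b1 differed in how far they moved. Cyp26a1 stood at 55.8, 33.8 and 58.8 CPM in Cyp26-E1-KO, at 387, 363 and 391 CPM in Cyp26-E2-KO and at 378, 368 and 385 CPM in WT. All 3 Cyp26-E1-KO libraries lay far below every other library, and Cyp26-E2-KO overlapped WT. Means were 49.5 ± 13.7 CPM in Cyp26-E1-KO and 377 ± 8.81 CPM in WT (SD, n = 3 each), a 7.62-fold fall (log2 fold change -2.93 ± 0.18 SE, edgeR quasi-likelihood test with Benjamini-Hochberg adjustment, adjusted p = 2.26e-06). Without Cyp26-E1-KO replicate 2, which had the lowest level, the log2 fold change was -2.72.

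Cyp26c1, whose start lies 12.2 kb before that of Cyp26a1, stood at 1.24, 2.05 and 0.951 CPM in Cyp26-E1-KO, against 16.2, 16.4 and 10.8 CPM in WT. The groups did not overlap, and the fall was 10.2-fold (log2 fold change -3.36 ± 0.25, edgeR adjusted p = 5.87e-07). In Cyp26-E2-KO it stood at 12.7, 9.78 and 12.3 CPM, a log2 fold change of -0.32 over WT that did not pass (adjusted p = 0.33). Cyp26b1, on chromosome 6, fell by much less, to 66.8, 65.1 and 62.3 CPM in Cyp26-E1-KO, against 77.7, 81.0 and 83.7 CPM in WT. In Cyp26-E2-KO it stood at 17.2, 17.4 and 18.8 CPM. The Cyp26-E1-KO values lay just below WT without overlap, and their log2 fold change was -0.32 ± 0.07 (edgeR adjusted p = 0.0038). The difference between both deletions passed for all 3 genes, with log2 values for Cyp26-E1-KO minus Cyp26-E2-KO of -2.94 for Cyp26a1, -3.04 for Cyp26c1 and 1.86 for Cyp26b1. WT drops out of that contrast, whereas the comparisons of each deletion with WT share the WT libraries.

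**Figure D1:**
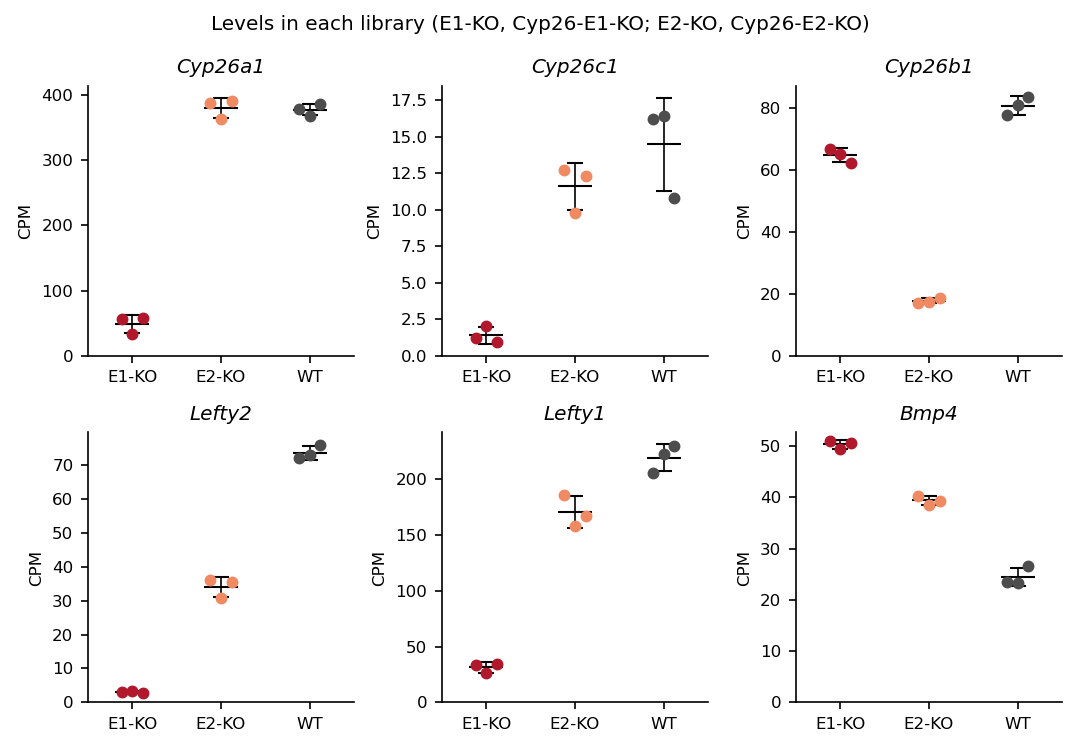
Levels in CPM (vertical axes from 0) of the 3 Cyp26 genes and of Lefty2, Lefty1 and Bmp4, with 1 point per library and the mean ± SD (n = 3) of Cyp26-E1-KO, Cyp26-E2-KO and WT. Cyp26a1 lies at 33.8 to 58.8 CPM in Cyp26-E1-KO and at 363 CPM or more in all libraries of the other groups, while Cyp26b1 is lowest in Cyp26-E2-KO.

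Of 18768 genes tested, 4741 (25.3%) passed at an adjusted p of 0.05 in Cyp26-E1-KO against WT. Of these 2464 (13.1%) were higher and 2277 (12.1%) lower, and the median absolute log2 fold change was 0.57. Scaled by library totals alone, 2163 were higher and 2593 lower, so the larger direction turned. A change of 2-fold or more was seen in 490 higher (2.61%) and 553 lower genes (2.95%), and 2005 of the genes that passed changed by a log2 value under 0.5. The 3 Cyp26-E1-KO values and the 3 WT values did not overlap for 7455 genes (39.7%). Without replicate 2 of Cyp26-E1-KO, 6217 of 19368 tested genes passed, and 4409 genes passed in the same direction in both fits. Cyp26-E2-KO against WT had 3280 genes that passed (17.5%), 1741 higher (9.28%) and 1539 lower (8.2%), in a comparison that shares the WT libraries.

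The largest falls were ranked among genes of mean log2 CPM 1 or more whose groups did not overlap, passing over gene models without a given name. They were headed by the Nodal antagonist Lefty2, at 2.96, 3.43 and 2.71 CPM in Cyp26-E1-KO and at 72.0, 72.9 and 75.9 CPM in WT. This was a 24.3-fold fall (log2 fold change -4.60 ± 0.11, edgeR adjusted p = 7.72e-12), with no library near the other group. Next came Aurkc, a kinase of meiosis (3.45, 2.86 and 1.90 CPM against 27.8, 26.8 and 31.4 CPM in WT, log2 -3.38), Slfn9 of the Schlafen family (-3.25) and Pdyn, the precursor of dynorphin opioid peptides (-3.02). Sfmbt2, a Polycomb-group gene, stood at 10.6, 16.9 and 11.0 CPM in Cyp26-E1-KO against 70.9, 69.8 and 68.7 CPM in WT (log2 -2.45). The other falls of the rule were the cytochrome P450 gene Cyp2b23 (-2.77), the atrial myosin light chain Myl7 (-2.68), Chac1, which degrades glutathione (-2.49), and Ooep, an oocyte-expressed gene (-2.34), beside Lefty1, Cyp26a1 and Cyp26c1. The 20-Mb segment of chromosome 2 that holds Pdyn had a median log2 deviation from WT of -0.197 to -0.097 in the Cyp26-E1-KO libraries.

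By the same rule, the largest rises were led by Tbx18, a T-box transcription factor. It stood at 7.13, 7.77 and 6.94 CPM in Cyp26-E1-KO and 0.648, 0.299 and 0.534 CPM in WT. It rose 14.6-fold (log2 fold change 3.87 ± 0.24, edgeR adjusted p = 9.41e-08). Npr3, the clearance receptor of natriuretic peptides, rose 10.5-fold, to 16.8, 21.7 and 15.8 CPM against 2.33, 1.70 and 1.10 CPM in WT. A pair of the risers were abundant: Thbs1, the matrix glycoprotein thrombospondin 1, stood at 108, 110 and 111 CPM in Cyp26-E1-KO against 20.4, 18.1 and 18.8 CPM in WT, and the ubiquitin ligase Rnf128 at 124, 134 and 127 CPM against 25.9, 26.6 and 26.6 CPM. Both sets of values lay tight within each group, with log2 fold changes of 2.52 ± 0.08 and 2.29 ± 0.07. The protocadherins Pcdh17 (3.09) and Pcdh10 (2.72), Sema3d, a secreted semaphorin (2.57), the transmembrane protein gene Slitrk4 (2.43), Hand1 (2.35), the paired-box factor Pax1 (2.34) and the serine protease Tmprss2 (2.24) were others of the rule. Pax1 rose although the median of its 20-Mb segment was below WT (-0.232 to -0.184).

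**Figure D2:**
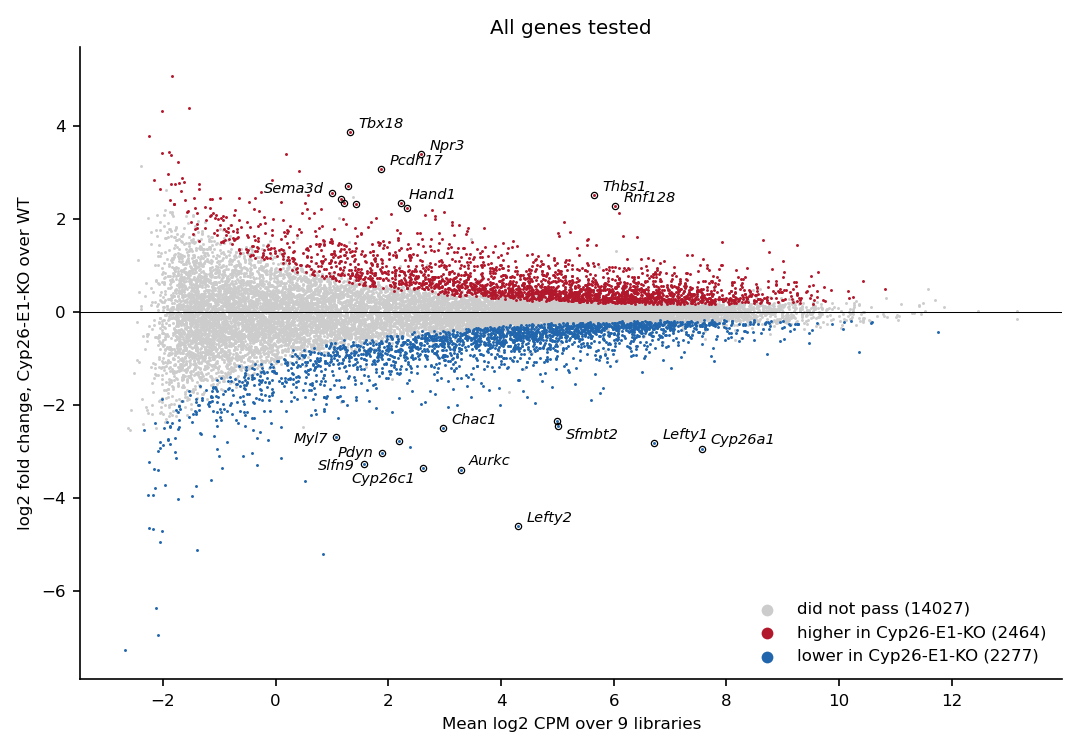
Each point is 1 of 18768 genes, with the mean log2 CPM over 9 libraries on the horizontal axis and the log2 fold change of Cyp26-E1-KO over WT on the vertical axis, coloured by whether it passed at an adjusted p of 0.05. Circles mark the 24 largest changes of the rule and labels some of them: Lefty2 lies lowest among these at -4.60 and Tbx18 highest at 3.87.

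Among genes of RA handling, 3 of 23 tested rose and 9 fell, with a median log2 fold change of -0.12 against -0.0082 for all genes. Of all tested genes 13.1% rose and 12.1% fell, the shares to set beside the counts of this and the later gene lists. Of enzymes that make RA, Rdh10, a retinol dehydrogenase, rose to 14.6, 16.2 and 17.1 CPM in Cyp26-E1-KO, against 7.84, 8.65 and 7.78 CPM in WT (log2 0.98, edgeR adjusted p = 2.42e-05). Aldh1a2, a retinaldehyde dehydrogenase, rose by 0.80 (7.06, 4.59 and 6.16 CPM against 4.12, 3.06 and 3.04 CPM in WT), and Aldh1a3 had a log2 fold change of 1.39 that did not pass (adjusted p = 0.055) but passed with DESeq2 (0.034), with no filter (0.024) and without replicate 2 (1.76, adjusted p = 0.0034). Both Rdh10 and Aldh1a2 lay above every WT library. Stra6, the membrane receptor for retinol uptake, fell to 42.5, 33.0 and 39.0 CPM in Cyp26-E1-KO against 66.6, 67.7 and 59.6 CPM in WT, and its difference from Cyp26-E2-KO (73.6, 72.5 and 71.6 CPM) passed too.

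Among the carriers of retinoids, Crabp2, the cytosolic carrier that hands RA to RARs, fell by 0.91 on the log2 scale (7.68, 3.18 and 6.94 CPM in Cyp26-E1-KO against 11.8, 10.9 and 10.8 CPM in WT, edgeR adjusted p = 0.013). Without replicate 2 it fell by 0.61. Crabp1 had a log2 fold change of -1.17 that did not pass (adjusted p = 0.063) and one of -0.74 that passed without replicate 2 (adjusted p = 0.016).

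Of the receptors, Rara fell to 70.7, 62.3 and 73.1 CPM in Cyp26-E1-KO, against 96.7, 104 and 98.5 CPM in WT (log2 -0.54 ± 0.07, edgeR adjusted p = 9.53e-05). Rxra rose by 0.28 and Rxrg fell by 1.23. The Rxra call was lost without WT replicate 2 (adjusted p = 0.087) or without Cyp26-E1-KO replicate 3 (0.052), and the Rxrg call without WT replicate 1 (0.052). Rarb, a widely used RA target, stood at 9.34, 12.6 and 10.9 CPM in Cyp26-E1-KO and 12, 11.6 and 12.1 CPM in WT, overlapping groups with a log2 fold change of -0.12 (adjusted p = 0.55). Rarg (0.20, adjusted p = 0.098) and Rxrb (0.0042, adjusted p = 0.98) did not pass either, though Rarg passed without replicate 2 (0.26, adjusted p = 0.0034). Stra8, an RA-induced gene of meiotic entry, fell to 154, 95.5 and 147 CPM in Cyp26-E1-KO, against 209, 216 and 210 CPM in WT, whereas it stood at 256, 248 and 253 CPM in Cyp26-E2-KO. The dehydrogenase Dhrs3 had 50.4, 43.8 and 49.0 CPM against 49.8, 53 and 52.4 CPM and did not pass.

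Hox genes of clusters A and B were lower in Cyp26-E1-KO. In the Hoxb cluster 9 of 10 tested genes fell and none rose, with a median log2 fold change of -1.06, and Hoxb13 did not pass. Hoxb1, an early RA target, stood at 24.2, 22.4 and 22.1 CPM in Cyp26-E1-KO, at 43.7, 39.6 and 40.4 CPM in Cyp26-E2-KO and at 64.5, 69.2 and 66.7 CPM in WT. The 3 groups were fully separate in that order, with a 2.91-fold fall in Cyp26-E1-KO (log2 -1.54 ± 0.08, edgeR adjusted p = 1.73e-08). Hoxb6 (-1.68), Hoxb5 (-1.64) and Hoxb2 (-1.41) fell by like amounts, and for 5 of the 10 genes the difference from Cyp26-E2-KO passed as well, all lower in Cyp26-E1-KO, against 2.02% of all genes. The Hoxb6 difference was lost without Cyp26-E2-KO replicate 3 (adjusted p = 0.055).

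In the Hoxa cluster 9 of 11 fell and none rose, with a median of -0.82. Hoxa6 (-1.01), Hoxa2 (-0.95) and Hoxa10 (-0.91) fell by like amounts, while Hoxa11 and the antisense RNA Hotairm1 did not pass. Reads of an antisense RNA and of a gene it overlaps cannot be told apart without strand. Without replicate 2, 9 Hoxb and 7 Hoxa genes fell. The 20-Mb segments around Hoxa and Hoxb had medians of -0.155 to -0.097 and -0.129 to -0.025 in the Cyp26-E1-KO libraries.

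The Hoxc and Hoxd clusters did not follow. Of 11 tested genes 3 rose and 1 fell, and the rises were Hoxd8 (1.42), Hoxd9 (1.2) and Hoxd13 (1.14), while Hoxc5 fell by 1.47. Hoxd13 had 4.59, 5.58 and 4.54 CPM in Cyp26-E1-KO against 2.43, 2.26 and 1.97 CPM in WT, with no overlap. The segment of chromosome 2 that holds Hoxd had medians of 0.158 to 0.232 in Cyp26-E1-KO, and the part of that shift in these rises was not tested. The Hoxd9 call was lost under several alternatives, among them without WT replicate 1 (adjusted p = 0.11). Cdx1, a homeobox gene upstream of Hox genes, fell to 66.3, 62.3 and 68.2 CPM against 115, 121 and 114 CPM in WT (log2 -0.83), one of 3 falls and 2 rises among 12 Cdx and TALE cofactor genes.

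**Figure D3:**
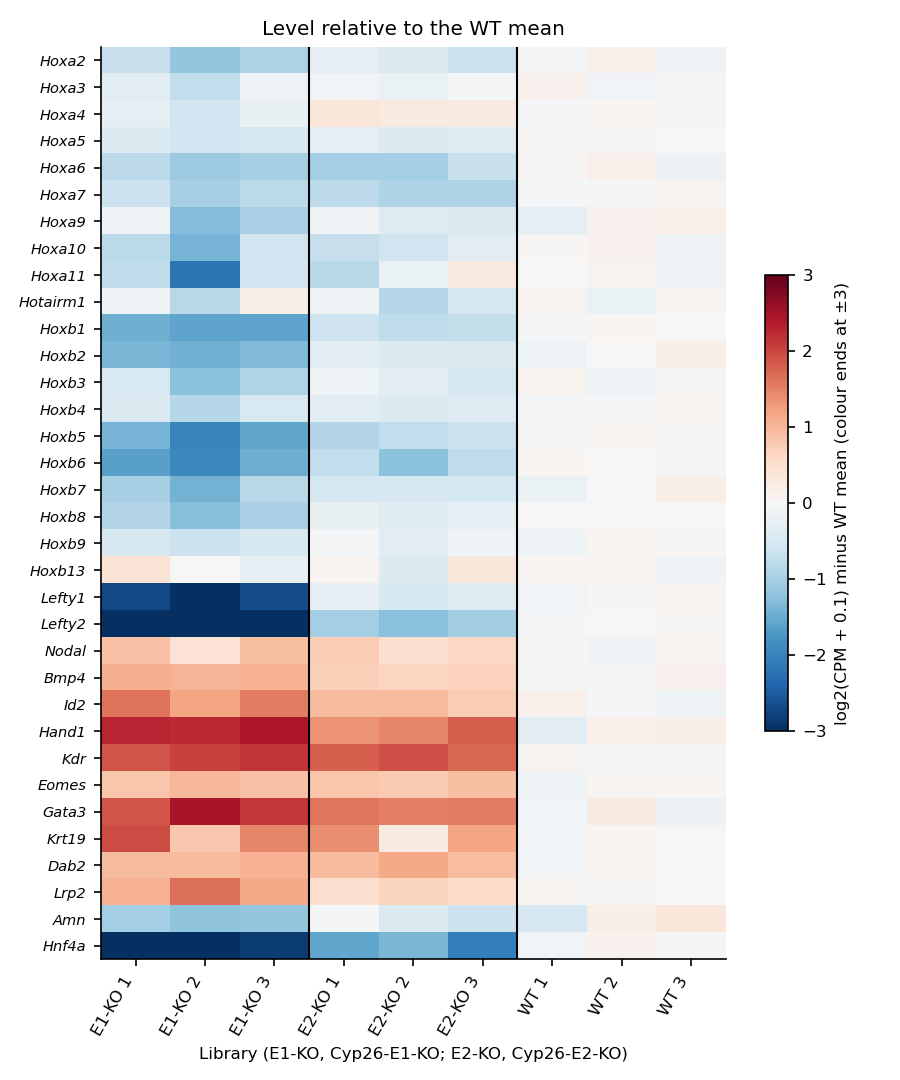
Rows are Hoxa and Hoxb genes and genes of the Nodal pathway, mesoderm, trophectoderm and endoderm, columns the 9 libraries of Cyp26-E1-KO, Cyp26-E2-KO and WT, and the colour log2(CPM + 0.1) minus the WT mean, ending at -3 and 3. Hoxb1 and Hoxb2 are below WT in all 3 Cyp26-E1-KO libraries and closer to it in Cyp26-E2-KO, and Lefty2 reaches the end of the scale in Cyp26-E1-KO.

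Genes of the Nodal pathway moved in both directions, 4 rising and 5 falling of 17 tested in the Nodal and TGF-beta family. Lefty1, which like Lefty2 encodes a secreted inhibitor of Nodal induced by Nodal signalling, stood at 33.7, 26 and 34.4 CPM in Cyp26-E1-KO, at 186, 158 and 168 CPM in Cyp26-E2-KO and at 206, 223 and 230 CPM in WT. Its fall in Cyp26-E1-KO was 7.00-fold (log2 -2.81 ± 0.10, edgeR adjusted p = 8.23e-10), and the log2 fold change in Cyp26-E2-KO was -0.36. The 3 groups did not overlap, and the gap between Cyp26-E1-KO and the others was the wider one. Lefty2 reached 36.2, 30.7 and 35.5 CPM in Cyp26-E2-KO, between the other groups.

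The ligand gene Nodal itself, looked at after its values were seen, rose to 110, 80.5 and 111 CPM in Cyp26-E1-KO, against 61.1, 55.4 and 61.8 CPM in WT (log2 0.76, edgeR adjusted p = 0.00023). In Cyp26-E2-KO Nodal also rose, to 101, 84.7 and 91.7 CPM (log2 0.64). Its difference between the deletions did not pass (edgeR adjusted p = 0.62), but passed without Cyp26-E1-KO replicate 2 (log2 0.25, edgeR adjusted p = 0.0095). Bmp4, a BMP ligand, rose to 51.0, 49.3 and 50.6 CPM against 23.6, 23.3 and 26.5 CPM in WT, and Id2, a BMP-responsive inhibitor of helix-loop-helix factors, to 91.9, 67.6 and 86.0 CPM against 33.2, 29.0 and 27.4 CPM. Both had all Cyp26-E1-KO libraries above WT, and both were higher than in Cyp26-E2-KO by the test of that difference (log2 0.35 and 0.57). The Bmp4 difference was lost in the fit of 6 libraries alone (adjusted p = 0.052), without Cyp26-E1-KO replicate 3 (0.0501) and without Cyp26-E2-KO replicate 1, 2 or 3 (0.058, 0.083 and 0.093), and the Id2 difference without Cyp26-E2-KO replicate 3 (0.067). Other members of the list were looked at after their values were seen. Against WT, Smad6 rose by 0.77 and Bmp7 fell by 0.58. Id1 (-0.07), Id3 (0.28) and Smad7 (0.11) did not pass, though Id3 passed without replicate 2 (0.52).

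Of 22 genes of naive pluripotency 11 fell and 5 rose. The falls included Lefty1, Lefty2 and Tcl1, a coactivator of AKT, which stood at 5.27, 3.99 and 4.96 CPM in Cyp26-E1-KO against 10.2, 12.6 and 12.9 CPM in WT. Nanog, looked at after its values were seen, stood at 118, 99.9 and 109 CPM against 207, 211 and 217 CPM in WT (log2 -0.96). Nr0b1, an orphan nuclear receptor of ESCs, rose to 178, 144 and 171 CPM against 78.3, 81.6 and 75.2 CPM in WT (log2 1.07). The 20-Mb segment holding Tcl1 had medians of -0.447 to -0.317 in Cyp26-E1-KO. Among 16 formative and primed genes 4 rose and 3 fell: the forkhead gene Foxd3 rose by 1.13, Otx2 by 0.90 and the cadherin Cdh2 by 0.74, while Zic5 fell by 0.84. Otx2, a homeobox factor of primed cells and the forebrain, stood at 16.6, 16.5 and 17.6 CPM in Cyp26-E1-KO, at 9.41, 10.5 and 9.18 CPM in Cyp26-E2-KO and at 9.37, 8.78 and 9.04 CPM in WT, and its difference between both deletions passed (log2 0.80). Genes of the 2-cell-like state were lower, with 9 of 12 falling and none rising at a median of -0.72, among them the zinc-finger gene Zfp352 (-1.66). The summed markers of that state were 34.9 to 46.8 CPM in Cyp26-E1-KO against 66.6 to 71.2 CPM in WT. Counts of Zscan4 and Usp17l genes are uncertain, since near-identical copies share reads.

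Markers of lineages outside the naive state rose in part. Of 13 mesoderm and primitive streak genes 5 rose and 1 fell. Hand1, a factor of extraembryonic mesoderm and heart, stood at 9.28, 8.93 and 10.2 CPM in Cyp26-E1-KO, at 4.84, 5.19 and 6.70 CPM in Cyp26-E2-KO and at 1.43, 2.03 and 2.1 CPM in WT. Kdr, the receptor of VEGF on early vascular cells, had 10.7, 12.1 and 12.8 CPM in Cyp26-E1-KO against 3.01, 2.76 and 2.70 CPM in WT (log2 2.07). The summed level of 4 mesoderm markers was 52.4 to 58.3 CPM in Cyp26-E1-KO, 51.4 to 52.8 CPM in Cyp26-E2-KO and 25.3 to 27.6 CPM in WT. In the trophectoderm list 5 of 12 rose and none fell, with Gata3 at 10.8, 16.2 and 12.7 CPM against 2.66, 3.43 and 2.47 CPM in WT (log2 2.21), Krt19, a simple keratin, at 1.57 and Eomes at 0.90. In all libraries these markers were low, the 4 trophectoderm markers summing to 28.7 to 34.7 CPM in Cyp26-E1-KO and 19.7 to 21.2 CPM in WT.

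The endoderm list split, with 8 of 22 rising and 6 falling. Lrp2, an endocytic receptor also known as megalin, rose to 575, 887 and 622 CPM in Cyp26-E1-KO against 291, 274 and 277 CPM in WT (log2 1.31), and the adaptor gene Dab2 to 28.8, 28.4 and 30.7 CPM against 13.9, 15.6 and 14.8 CPM. Hnf4a, a nuclear receptor of visceral endoderm, fell to 0.325, 0.247 and 0.563 CPM against 4.47, 5.12 and 4.54 CPM in WT (log2 -3.63 ± 0.31), and Amn, a partner of cubilin, fell by 1.21. Replicate 2 carried the highest Lrp2 level. Segment medians in Cyp26-E1-KO were 0.158 to 0.232 at Lrp2, -0.172 to -0.118 at Hnf4a and -0.447 to -0.317 at Amn. The neuroectoderm list had 3 rises and 3 falls of 13 at a median of 0.29, and 5 rises and 3 falls without replicate 2. Its rises were the paired-box factors Pax6, at 16.0, 13.7 and 13.2 CPM in Cyp26-E1-KO against 9.56, 10.9 and 10.3 CPM in WT (log2 0.48), and Pax3 (1.51), with the neuronal tubulin Tubb3 (0.29); Pax6 and Tubb3 were looked at after their values were seen. The Pax3 call was lost under several alternatives, among them the fit with no filter on low counts. Of the falls, the neural progenitor factor Sox1 stood at 12.2, 8.93 and 10.9 CPM against 20.4, 18.4 and 18.4 CPM in WT. The 4 neuroectoderm markers summed to 80.0 to 84.6 CPM in Cyp26-E1-KO and 75.9 to 76.1 CPM in WT.

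**Figure D4:**
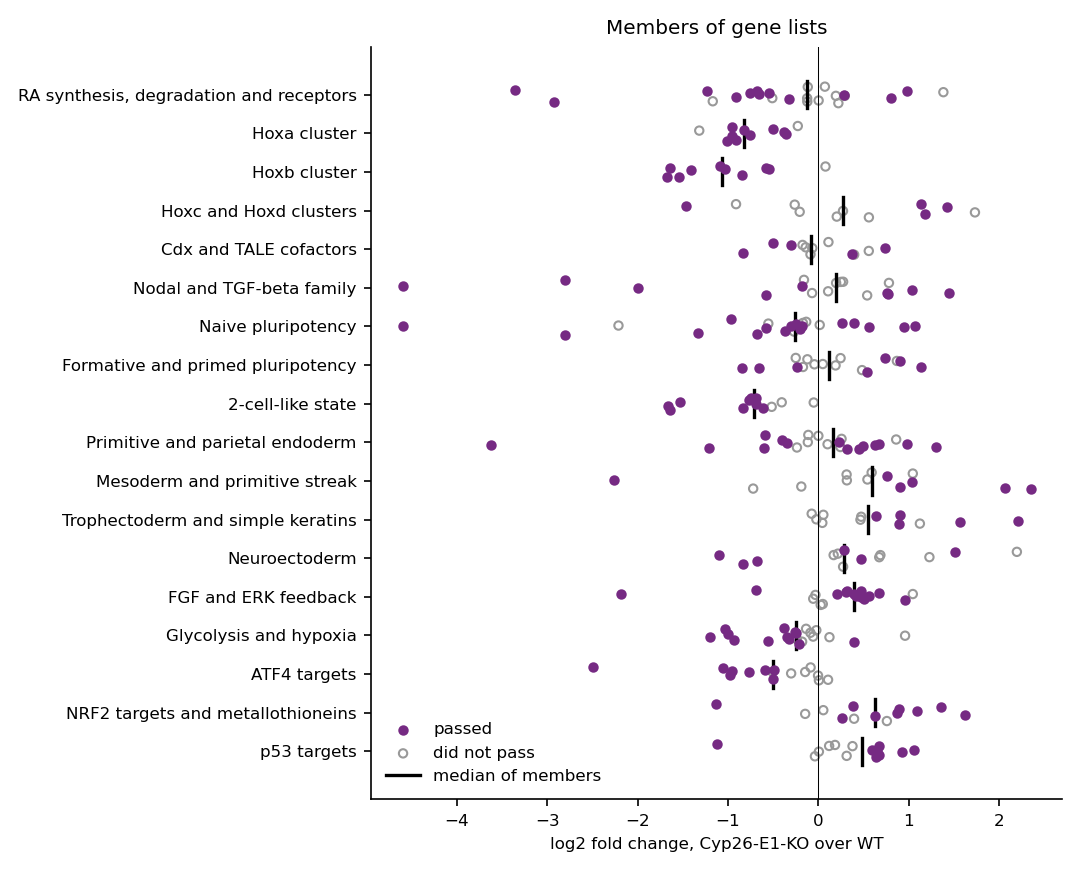
Points are tested members of 18 gene lists by their log2 fold change of Cyp26-E1-KO over WT, filled where they passed at an adjusted p of 0.05, and bars the medians of members. Hoxa and Hoxb members other than Hoxb13 lie left of 0, with medians of -0.82 and -1.06, while the mesoderm list has a median of 0.59.

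Signalling and metabolic lists differed in how far they leaned one way. Of 19 FGF and ERK feedback genes 11 rose and 2 fell. Dusp6, a phosphatase induced by ERK, stood at 533, 505 and 497 CPM in Cyp26-E1-KO against 329, 314 and 321 CPM in WT (log2 0.67), with all libraries apart. Fgf10 rose by 0.96 and the ligand gene Fgf15 fell by 2.18, to 1.63, 0.671 and 0.422 CPM against 4.47, 4.16 and 3.87 CPM in WT. Of 26 Wnt pathway genes 4 rose and 3 fell, a share near the 25.3% of all genes. The ligand gene Wnt6 rose by 1.32 and Wnt7b by 1.24, to 6.64, 6.43 and 5.84 CPM in Cyp26-E1-KO against 2.69, 2.26 and 3.04 CPM in WT. Among the falls was Sfrp5, a secreted Wnt antagonist on chromosome 19, at 14.2, 11.8 and 13.4 CPM against 50.1, 50.9 and 52.1 CPM in WT (log2 -1.96). Of 16 Notch genes, 1 fell (Notch3, -0.50) and none rose.

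In glycolysis and the hypoxia response, 11 of 20 genes fell and 1 rose. Pfkp, a phosphofructokinase, stood at 93.7, 106 and 87.6 CPM in Cyp26-E1-KO against 218, 214 and 226 CPM in WT (log2 -1.19), Vegfa fell by 1.03 and Bnip3, a mitophagy receptor, by 1.00. In Cyp26-E2-KO the log2 fold changes of these 3 genes were -1.07, -1.18 and -0.97. Of 15 targets of the stress factor ATF4, 8 fell and none rose, led by Chac1, which stood at 5.24, 3.67 and 4.37 CPM against 23.0, 25.0 and 26.9 CPM in WT, and Trib3 (-1.06), a pseudokinase. Segment medians were -0.232 to -0.184 at Trib3. In the list of NRF2 targets and metallothioneins, 8 of 13 genes rose and 1 fell. NRF2 is a transcription factor of the antioxidant response, and metallothioneins bind zinc and other metals. Among targets of NRF2, the quinone reductase Nqo1 stood at 139, 127 and 131 CPM against 43.2, 38.1 and 47.5 CPM in WT (log2 1.62) and Gclc, of glutathione synthesis, at 167, 161 and 168 CPM against 76.3, 78.2 and 77.4 CPM (1.10). The metallothionein Mt3 was among the rises (1.36), a call lost under several alternatives, among them library totals alone (adjusted p = 0.052), while Mt1 and Mt2, looked at after their values were seen, did not pass. The fall was the zinc transporter Slc30a1 (-1.13), whose call was lost without WT replicate 1, WT replicate 2 or Cyp26-E1-KO replicate 1. Of 14 p53 targets, 7 rose and 1 fell, with the kinase gene Plk2 at 1.06, Perp at 0.93 and the apoptosis gene Pmaip1 at -1.12. Without replicate 2, 11 p53 targets rose and 1 fell. In Cyp26-E2-KO against WT, 13 glycolysis and hypoxia genes and 8 ATF4 targets fell and none rose. In that comparison 7 genes of the NRF2 and metallothionein list and 7 p53 targets rose, and 1 p53 target fell.

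Further lists held both directions, except that of ribosomal proteins. Of 21 imprinted genes 5 rose and 4 fell, the growth factor gene Igf2 rising by 0.94 and Mest by 0.91 and the zinc-finger gene Plagl1 falling by 1.81. The cholesterol list had 1 rise and 4 falls of 20, a share near the 25.3% of all genes. The germline list had 3 rises and 4 falls of 14, including the cohesin gene Smc1b at -1.67, and the fibroblast list 1 of each among 6. Of 82 ribosomal protein genes none rose and 9 fell, a share of falls near the 12.1% of all genes, with a median of -0.19. Without replicate 2, 3 rose, 15 fell and the median was -0.02.

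On chromosome 19, 18 genes that start within 1 Mb of the Cyp26a1 start were tested beside Cyp26a1, and 3 rose and 6 fell. The falls were Cyp26c1, Lgi1, Fgfbp3, Gm42723, Plce1 and Fra10ac1. Lgi1, a secreted protein of neurons that starts 567 kb beyond Cyp26a1, stood at 1.66, 1.45 and 2.01 CPM in Cyp26-E1-KO, at 6.64, 8.35 and 6.82 CPM in Cyp26-E2-KO and at 5.51, 4.06 and 4.07 CPM in WT. It was lower than both other groups, and the difference between the deletions passed (log2 -2.09, edgeR adjusted p = 4.11e-05). Plce1, a phospholipase C gene at 783 kb, stood at 24.7, 32.5 and 23.0 CPM in Cyp26-E1-KO against 49.7, 47.0 and 44.5 CPM in WT (log2 -0.82), and at 32.1, 32.8 and 32.9 CPM in Cyp26-E2-KO.

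Exoc6, an exocyst gene that starts 147 kb before Cyp26a1, rose to 41.9, 49.6 and 40.3 CPM in Cyp26-E1-KO against 34.1, 31.7 and 31.9 CPM in WT, a log2 change of 0.43 beside 0.45 in Cyp26-E2-KO. Myof (0.33) and Slc35g1 (0.30) also rose. Fgfbp3, an FGF carrier, fell by 1.35. The calls of Fra10ac1 (-0.55) and of Myof were lost without WT replicate 3 (adjusted p = 0.088 and 0.070), that of Fra10ac1 also without WT replicate 2 (0.070), and that of Gm42723 (-1.14) in the fit of 6 libraries alone and without WT replicate 1 (0.20), Cyp26-E1-KO replicate 1 (0.089) or replicate 3 (0.093). Hhex, a homeobox gene with its start at -263.0 kb, and the retinol carrier Rbp4 had overlapping groups and did not pass. Without WT replicate 3 Hhex did pass (log2 1.215, adjusted p = 0.040). Kif11, a spindle motor, ranged from 6.71 to 23.3 CPM in Cyp26-E1-KO and from 31.8 to 45.9 CPM in WT, without passing. Only the fit with no filter on low counts called it (edgeR adjusted p = 6.96e-25, against 0.397 in the main fit). The log2 fold change was -1.22 in both. For some genes that fit gave far smaller p-values at like fold changes, for Cyp26a1 7.02e-258 in place of 2.26e-06. Its call of Kif11 therefore carries little weight.

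In WT cells the bait contacted these gene starts unevenly. Within 5 kb of the Cyp26a1 start lay 15.4% and 16.1% of reads in the 2 libraries, which includes the bait itself. Plce1 followed with 2.19% and 2.42%, Cyp26c1 with 1.31% and 1.40%, and Exoc6 with 0.989% in both, and all other gene starts had less than 0.3%. In library 1 these reads came from 2 fragments at Plce1, 8 at Cyp26c1 and 10 at Exoc6. The 5 kb beyond the Cyp26c1 start reach into the 10-kb window with most reads. Lgi1 had 0.108% and 0.104%. Plce1, Cyp26c1 and Exoc6, the 3 neighbours with most reads, were thus 2 genes that fell and 1 that rose in Cyp26-E1-KO. No 4C libraries of the deletion are among those analysed here.

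**Figure D5:**
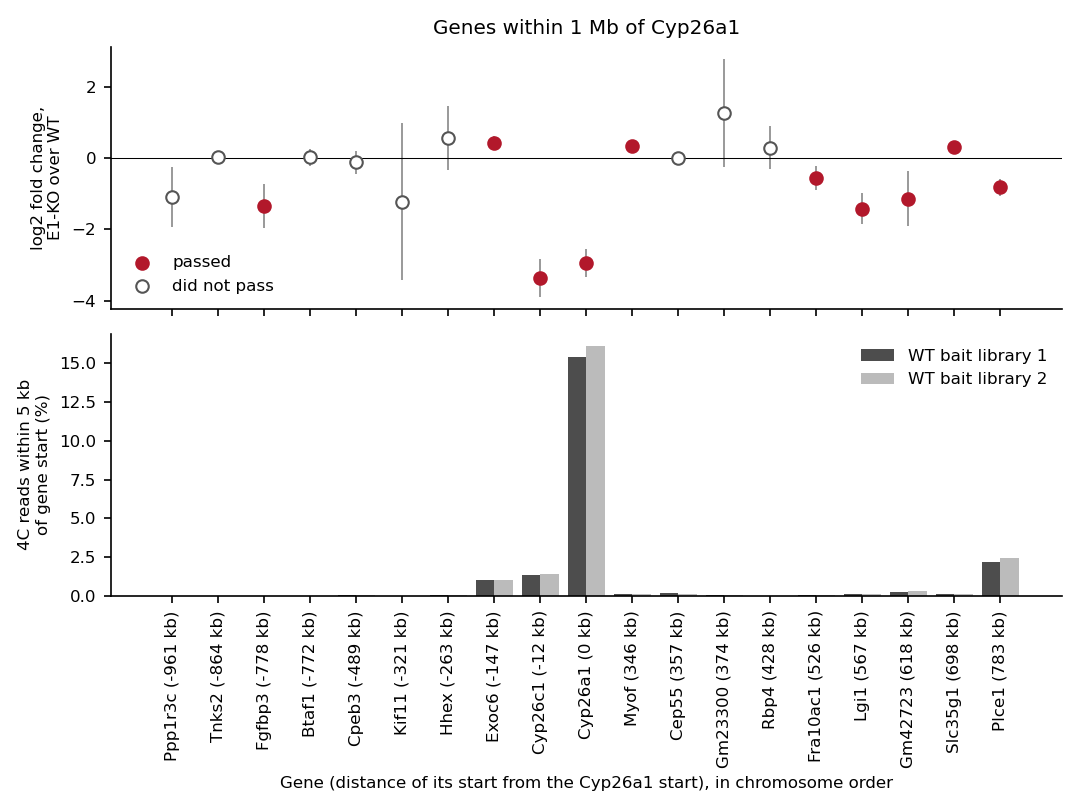
The genes tested within 1 Mb of Cyp26a1 in chromosome order, labelled with the distance of their start, are shown with the log2 fold change of Cyp26-E1-KO over WT and its 95% interval (top) and the share of 4C reads within 5 kb of the gene start in 2 WT libraries (bottom). Cyp26c1 and Cyp26a1 lie lowest at -3.36 and -2.93, and Plce1, at 783 kb, has 2.19% and 2.42% of reads, in library 1 from 2 fragments.

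Across the whole genome, the 250 bases before the start held a DR5 in 1 of 1652 genes that fell (0.0605%), which was Cyp26a1 itself. Among all 12211 tested genes with a promoter in the RefSeq table, 9 held one there (0.0737%). Of 1874 genes that rose, 3 had one (0.16%), namely Syndig1, Blvrb and Ppbp, and these shares were not tested.

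Whole chromosome regions were also shifted. The median log2 deviation from WT over the tested genes of chromosome 16 was 0.150, 0.217 and 0.155 in the Cyp26-E1-KO libraries and 0.175 to 0.201 in Cyp26-E2-KO, and 157 of its 515 genes rose (30.5%) and 37 fell. In its first 20 Mb the Cyp26-E1-KO medians were 0.255 to 0.296, from 20 to 40 Mb 0.291 to 0.388, and from 40 to 60 Mb -0.04 to 0.061. At the start of chromosome 6 (0 to 20 Mb, 54 genes) the medians were -0.612 to -0.514. In 12 of 139 segments of 20 Mb, all 3 Cyp26-E1-KO medians were at least 0.1 from WT in 1 direction, counting segments with 20 or more tested genes. In 10 of the 12 all 3 Cyp26-E2-KO medians were also at least 0.1 from WT in that direction, for example -0.516 to -0.319 at the start of chromosome 6. Leaving out their 1564 genes, 2188 genes rose and 1961 fell among 17204. A gain or loss of chromosome material and a change in expression cannot be told apart here. The segment that holds Cyp26a1 and Cyp26c1 had medians of 0.015 to 0.057.

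The difference between the deletions passed for 842 genes (4.49%), of which 462 (2.46%) were higher and 380 (2.02%) lower in Cyp26-E1-KO than in Cyp26-E2-KO. Of the lower ones 59 lay between 100 and 160 Mb of chromosome 6, where 1 gene was higher and segment medians were -0.119 to 0.079 in Cyp26-E1-KO and 0.151 to 0.290 in Cyp26-E2-KO. Outside that stretch 461 genes were higher and 321 lower. Scaled by library totals alone the split was 334 higher and 505 lower. Without Cyp26-E1-KO replicate 2, 1852 passed, and without any one Cyp26-E2-KO library 310 to 400. Of the 4741 genes changed in Cyp26-E1-KO against WT, 633 also differed from Cyp26-E2-KO. Among 47 named genes that differed, 26 passed under every alternative run, 17 of 23 lower and 9 of 24 higher ones. By the rule for the largest changes, the genes furthest below Cyp26-E2-KO were Lefty2 (log2 -3.49), Cyp26c1 (-3.04), Cyp26a1 (-2.94), Lefty1 (-2.44) and Aurkc (-2.11). Those furthest above were Cyp26b1 (1.86), Sms-ps, named as a pseudogene of spermine synthase (1.43), Npr3 (1.37), the Wnt receptor Ror1 (1.20) and the chemokine Cxcl12 (1.17). Sms-ps had 44.7, 63.2 and 49.3 CPM in Cyp26-E1-KO, 20.1, 19 and 19.3 CPM in Cyp26-E2-KO and 45.8, 21.7 and 49.5 CPM in WT, so that its WT libraries spanned both. As a pseudogene it can share reads with its parent gene, and the difference did not pass without any one library of either deletion (adjusted p = 0.109 without Cyp26-E1-KO replicate 2). Cxcl12 was lower than WT in both deletions, at 6.38, 4.48 and 5.74 CPM in Cyp26-E1-KO and 2.92, 1.46 and 2.98 CPM in Cyp26-E2-KO against 8.10, 8.15 and 9.78 CPM in WT. Its difference between the deletions was lost in the fit of 6 libraries alone (adjusted p = 0.060). Its call against WT in Cyp26-E1-KO was lost without any one WT library, without replicate 2 (adjusted p = 0.051) or without replicate 3.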

How the data were processed

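RNA-seq values are raw counts of reads per gene, as deposited by the authors for 9 libraries. The build was mm10, per the submitters' processing notes. Those notes also list Bowtie2 2.3.1, HISAT2 2.1.0, MACS2 2.2.7.1, HTSeq 0.9.1 and DESeq2 1.18.1, and do not say what each was used for. The 4C tables hold the authors' deposited counts of reads per restriction fragment. Strand is not given in the sources used here. Of 52636 genes, 52403 identifiers were matched to GENCODE symbols and 233 were not.

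The mutant columns carry codes, not titles. The code Ac was matched to Cyp26-E1 because the 4C tables of that bait are coded a and their bait lies beside Cyp26a1 and Cyp26c1, and b to Cyp26-E2. The titles of the Cyp26-E2 RNA samples lack the word KO, and the design text supplies it.

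Counts of all 9 libraries were fitted together in edgeR 4.0.16 under R 4.3.3 (TMM, filterByExpr at a minimum count of 10, robust quasi-likelihood test, Benjamini-Hochberg adjustment over all tested genes, threshold 0.05) and tested on simulated data. CPM carry the TMM factors. Alternatives were other scalings, no filter, DESeq2 1.42.0, the 6 libraries compared, a replicate block, a 2-fold threshold, and leaving out in turn each library of the groups compared. Runs without a library of the remaining group, which also sets the spread, were not used.

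The comparison, the 26 gene lists and the rule for named genes were chosen with earlier results of these data known. Named were the Cyp26 genes, the 12 largest rises and 12 largest falls that passed without overlap at a mean log2 CPM from 1 upwards, up to 4 passing members per list, 5 genes each way between the deletions, and any neighbour or RA gene. Gene models without a given name, such as Gm followed by digits, were passed over among the largest changes and among the 5 genes each way. Other genes are said to be looked at after their values were seen. DR5 matches and sequences come from the RefSeq genome GRCm38.p6. Medians of 20-Mb segments are of log2 CPM (prior count 2) minus the WT mean. Named shifts of a segment were added after the data were seen. Some genes that the rule names are not reported here.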

Additional observations from a re-analysis of the deposited data

Results flagged for a closer look

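Of 144 named genes, 125 changed in Cyp26-E1-KO against WT, and 47 are listed because the 2 deletions differed in them by edgeR's test of that difference. Values are log2 levels in Cyp26-E1-KO minus those in Cyp26-E2-KO. Of the 47 calls 26 passed under every alternative run. In the 6 libraries of the deletions alone 14 of the 47 were lost, and 13, 11 and 17 were lost without Cyp26-E2-KO replicate 1, 2 or 3. Lost under all 4 of these settings were Bmp4, Foxd3, Gata3, Lss, Nqo1 and Slitrk4, and Sms-ps was lost without any one library of either deletion.

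Of these genes 23 were lower in Cyp26-E1-KO. The differences were -3.49 for Lefty2 and -2.44 for Lefty1, genes of the Nodal pathway. They were -3.04 for Cyp26c1, -2.94 for Cyp26a1, -0.93 for Stra6 and -0.93 for Stra8, genes of RA handling or response. In the Hoxb cluster Hoxb2 differed by -1.0, Hoxb5 by -0.88, Hoxb1 by -0.85 and Hoxb6 by -0.78. The neighbour gene Lgi1 differed by -2.09, the endoderm factor Hnf4a by -1.92 and the Wnt antagonist Sfrp5 by -0.71. The remaining ones were Aurkc at -2.11, Sfmbt2 at -1.54, Usp17lc at -0.85, the meiotic chromosome gene Hormad1 at -0.64, Rpl10l, a ribosomal protein paralog, at -0.55, Slfn9 at -1.29, Cyp2b23 at -0.86, the imprinted cell-cycle inhibitor Cdkn1c at -0.44, and the sterol enzymes Dhcr7 at -0.47 and Lss at -0.27.

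The other 24 were higher in Cyp26-E1-KO. Cyp26b1 differed by 1.86 and the receptor Rarg by 0.41. Cell-surface and matrix genes were Npr3 at 1.37, Ror1 at 1.20, Pcdh17 at 0.99, Slitrk4 at 0.89, Thbs1 at 0.87, Lrp2 at 0.74 and Perp at 0.51, and the chemokine Cxcl12 differed by 1.17. Transcription factors were Pax1 at 1.03, Tbx18 at 0.91, Otx2 at 0.80, Hand1 at 0.76, Gata3 at 0.64, Nr0b1 at 0.56 and Foxd3 at 0.41, with the helix-loop-helix inhibitor Id2 at 0.57. The growth factor genes Bmp4 and Igf2 differed by 0.35 and 0.41. Rnf128 differed by 0.66, the NRF2 targets Gclc and Nqo1 by 0.32 and 0.30, and Sms-ps by 1.43.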

How the results depend on the processing

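The count of 4741 genes in Cyp26-E1-KO against WT was 4738 with DESeq2 size factors in edgeR, 4756 with library totals, 5058 with no filter, 5146 with DESeq2, 3750 in the 6 libraries alone and 3413 to 6217 with 1 library left out. It was 1043 at 2-fold or more. The count of 842 between Cyp26-E1-KO and Cyp26-E2-KO was less stable: 1384 with no filter, 1357 with DESeq2, 339 in those 6 libraries alone, 112 at 2-fold or more and 310 to 1852 with 1 library left out, the highest without Cyp26-E1-KO replicate 2. The cause was not tested.

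Cyp26-E1-KO and WT libraries of 1 replicate number did not deviate together (correlations -0.0563, -0.0056 and 0.0281). Pairs of unlike number spanned -0.0498 to 0.0562, and Cyp26-E2-KO was not looked at in this way. So few pairs cannot tell whether libraries of 1 number share a batch. A fit with the replicate number as a block gave 4769 genes in Cyp26-E1-KO against WT and 861 between the deletions, and a log2 fold change of -2.96 for Cyp26a1.

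Cyp26a1 passed under every setting run, at -3.07 to -2.72 with 1 library left out. Of 127 named genes that passed, counting Nodal and Nanog, 108 passed in every setting, 19 were lost in at least 1 and none reversed. Of those that did not pass, 5 changed sign. With library totals Btaf1 was at -0.011, Cep55 at -0.0199, Rxrb at -0.0267 and Tnks2 at -0.0162. With 1 library left out the ranges were -0.1355 to 0.1229 for Btaf1, -0.0149 to 0.0422 for Cep55, -0.2084 to 0.0394 for Cpeb3, -0.0622 to 0.0759 for Rxrb and -0.0967 to 0.0817 for Tnks2. The median log2 fold change of all genes was -0.008, and -0.042 with library totals. Depth limits genes well below 1 CPM, where a few counts decide a value.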
